A study of Mus musculus with 8 samples.

Results

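The genes described here make cholesterol and fatty acids, measured by RNA sequencing in mouse macrophages with and without the m6A methyltransferase gene Mettl3. They are 33 genes named by symbol from textbook pathways: 21 for sterol synthesis with its regulators and a carrier, and 12 for fatty acid synthesis, elongation and desaturation. The list was chosen with earlier results of these data known, so its comparisons with all genes are not independent of those results. All 33 matched 1 row each of the deposited table of 55401 genes, and all 33 were among the 17470 genes with enough counts to be tested. Their lowest count in any library was 61 (Elovl6) and their highest was 11585 (Acly).

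Bone marrow-derived macrophages (BMDM) came from Mettl3fl/fl mice (here WT) and from Lyz2-Cre-Mettl3fl/fl mice (here KO). All animals thus carried the floxed Mettl3 allele, and only KO cells carried Cre, which the Lyz2 promoter drives in myeloid cells, so that the loss of Mettl3 and the presence of Cre cannot be told apart. Cells of each genotype received PBS, or LPS at 50 ng/ml overnight followed by nigericin at 10 µM for 3 h (here stimulation, or LPS + nigericin). LPS is a bacterial ligand of Toll-like receptor 4, and nigericin is a potassium ionophore that triggers the NLRP3 inflammasome. LPS alone and nigericin alone are not analysed here, so the part of each agent cannot be told apart. Each of the 4 groups had 2 libraries, 8 in all. Nothing in the labels says that a group's libraries came from separate mice or cultures, so p-values measure the spread between libraries only. The ages of the mice are not given in the labels.

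Sterol synthesis joins acetyl-CoA units into mevalonate, turns mevalonate into isoprenoids and squalene, and closes squalene to lanosterol, which is trimmed to cholesterol. Most of its enzymes are transcribed under SREBP-2 (gene Srebf2), a membrane-bound factor that is carried by SCAP to the Golgi and cut free when sterols are scarce, and that INSIG proteins hold back when they are plentiful. Fatty acid synthesis starts from the same acetyl-CoA through acetyl-CoA carboxylase and fatty acid synthase, under SREBP-1 (Srebf1) and the oxysterol receptor LXR, and stearoyl-CoA desaturases then place the first double bond. In macrophages both branches are known to be reset by Toll-like receptor signals.

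Total counts lay between 55032057 and 65487739 per library. Mettl3 itself stood at 13.6 and 13.3 CPM (counts per 1000000 counts of a library, scaled with edgeR's TMM factors) in WT with PBS and at 5.64 and 6.33 in KO with PBS. After stimulation it stood at 28.2 and 23.4 in WT and at 9.08 and 7.87 in KO, so every KO library was below every WT library of the same treatment. All 7 macrophage-defining markers were detected in every group, with 2 of 7 lower in stimulated KO than in stimulated WT and 1 of 7 lower in KO with PBS. Their sum was 25520 to 26640 CPM in stimulated KO against 44540 to 47170 in stimulated WT. With PBS it was 25970 to 27120 CPM in KO against 41060 to 44110 in WT. The sums came mostly from Lyz2, whose promoter drives Cre. In contrast, 5 of 6 adipocyte markers (Adipoq, Plin1, Cidec, Lep and Cfd) were at 0 in every group. The sixth, Fabp4, which macrophages also express, ranged from 208 to 266 CPM with PBS and from 42.6 to 54.4 after stimulation, and it fell in both genotypes, at -2.26 ± 0.09 in WT and -2.30 ± 0.09 in KO. Of 7 fibroblast and stromal markers, 6 were higher in stimulated KO than in stimulated WT libraries and 2 were higher in KO with PBS. By the same test 2.91% of all tested genes were higher and 2.01% lower in stimulated KO, and 1.20% were higher and 0.355% lower in KO with PBS. The stromal markers summed to 320 to 357 CPM in stimulated KO libraries, 124 to 128 in stimulated WT, 264 to 282 in KO with PBS and 170.0 to 190 in WT with PBS. All 3 tested B and plasma cell markers were also higher in stimulated KO, with a sum of 14.7 to 16.1 CPM against 5.49 to 7.69. With PBS their sum went the other way, at 30.2 to 37.8 CPM in KO against 51.8 to 53.4 in WT, while 1 of the 3, Jchain, was higher in KO by the test. Neutrophil markers summed to 3.90 to 3.96 CPM in WT with PBS and 28.1 to 35.4 after stimulation. In KO they summed to 5.6 to 5.9 CPM with PBS and 30.4 to 33.5 after stimulation. Dendritic cell markers summed to 2.59 to 3.67 CPM in stimulated KO and 1.17 to 1.24 in stimulated WT. Neither list held a marker that differed between genotypes by the test. Several markers thus moved with genotype, treatment or both, and their part in the results was not tested. In bulk RNA, fewer cells of a type and less RNA per cell cannot be told apart.

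The promoters of 4 members are shown. Cyp51, Srebf2 and Acss2 passed the test in at least 1 comparison below, and Hmgcs1, which passed in none, is shown because it holds the full sterol element. They are the bases just before the RefSeq start on build GRCm38.p6, read 5′ to 3′ on the gene's strand. Cyp51 lies at chr5:4104698-4104947 (minus strand), Srebf2 at chr15:82147019-82147268 (plus strand), Hmgcs1 at chr13:119690101-119690350 (plus strand) and Acss2 at chr2:155517793-155518042 (plus strand). Capitals mark matches on either strand to a sterol response element (TCACNCCAC), to its shorter form TCACCNCA, which overlaps the longer one, or to the CCAAT box that NF-Y binds (ATTGG on the other strand).
Cyp51: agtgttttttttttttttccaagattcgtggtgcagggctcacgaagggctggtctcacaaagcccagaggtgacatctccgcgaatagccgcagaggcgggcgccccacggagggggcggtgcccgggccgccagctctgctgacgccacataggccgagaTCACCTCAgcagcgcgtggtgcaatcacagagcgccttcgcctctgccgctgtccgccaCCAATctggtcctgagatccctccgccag
Srebf2: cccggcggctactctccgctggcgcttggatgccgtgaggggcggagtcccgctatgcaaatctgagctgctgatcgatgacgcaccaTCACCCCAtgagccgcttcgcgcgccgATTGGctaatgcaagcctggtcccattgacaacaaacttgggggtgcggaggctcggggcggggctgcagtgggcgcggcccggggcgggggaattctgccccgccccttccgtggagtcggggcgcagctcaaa
Hmgcs1: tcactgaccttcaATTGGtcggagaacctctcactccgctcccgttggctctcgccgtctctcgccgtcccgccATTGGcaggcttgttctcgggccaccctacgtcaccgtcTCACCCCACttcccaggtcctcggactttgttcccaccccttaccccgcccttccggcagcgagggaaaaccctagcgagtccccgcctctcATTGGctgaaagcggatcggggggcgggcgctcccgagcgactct
Acss2: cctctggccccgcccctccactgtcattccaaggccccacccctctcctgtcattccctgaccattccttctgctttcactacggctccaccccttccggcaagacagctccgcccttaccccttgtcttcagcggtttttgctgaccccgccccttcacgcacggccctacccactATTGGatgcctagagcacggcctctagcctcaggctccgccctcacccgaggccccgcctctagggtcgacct
In Cyp51 the shorter sterol element began 88 bases before the start and the CCAAT box 29 bases before it. In Srebf2 they began 162 and 135 bases before the start. Hmgcs1, the synthase of the mevalonate entry, held the full element 137 bases before the start. Acss2, the acetate-activating enzyme, held a single ATTGG 73 bases before the start and neither form of the sterol element.

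A RefSeq window of 250 bases before to 50 after the start was at hand for 17 sterol and 9 fatty acid members. CCAAT was present in 16 of 17 sterol windows (94.1%) and 6 of 9 fatty acid windows (66.7%), against 41.1% of 27025 genes with a window. This background was not limited to genes tested in these libraries, while every member was tested. The full element TCACNCCAC was in 1 of 17 sterol windows (Hmgcs1) and in 0 of 9 fatty acid windows, against 1.44% of genes. The shorter TCACCNCA was in 4 of 17 sterol windows (Cyp51, Hmgcs1, Hsd17b7 and Srebf2) and in 1 of 9 fatty acid windows (Elovl5), against 5.08% of genes. This shorter form was chosen after the promoters were read, so its share among the members is not independent of them. These are matches of letters in a short window, with no binding measured here. Scd1, Scd2, Sqle, Fdps, Fdft1, Stard4 and Fads1 have no entry in the table used.

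In WT macrophages stimulation moved these genes in both directions. Scd2 and Acss2 rose 4.69-fold and 3.41-fold, while the lanosterol-processing enzymes Cyp51, Msmo1 and Sc5d, the regulator Srebf2 and the desaturase Scd1 fell. Of the 21 sterol genes 2 rose and 8 fell, and of the 12 fatty acid genes 4 rose and 2 fell at an adjusted p under 0.05 (edgeR's quasi-likelihood test, Benjamini-Hochberg). Of all tested genes 40.5% passed, 20.6% higher and 20.0% lower. The members' shares were 47.6% for sterol and 50% for fatty acid genes, near that background. Both stimulated libraries lay above both PBS libraries in 7 sterol genes and below them in 11, against 34.6% and 36.6% of all genes. The median log2 fold change was -0.15 over sterol genes, -0.03 over fatty acid genes and -0.01 over all genes. These counts depend on scaling. With library size alone, the median of all genes was -0.20 and 36.5% of calls were higher instead of 50.7%. Then 0 sterol genes rose and 11 fell, and 3 fatty acid genes rose and 5 fell.

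Within the mevalonate steps, Mvd, the decarboxylase that makes isopentenyl diphosphate, stood at 19.6 and 20.7 CPM with PBS and 27.0 and 28.7 after stimulation in WT. Idi1, which isomerises that product, stood at 18.4 and 16.0 with PBS and 9.08 and 13.3 after stimulation. The libraries did not overlap in either gene, with log2 fold changes of 0.47 ± 0.10 (SE, adjusted p = 0.0112) for Mvd and -0.62 ± 0.19 (adjusted p = 0.0404) for Idi1. Hmgcs1 ranged from 40.7 to 58.3 CPM with PBS and from 27.2 to 39.3 after stimulation, and its change of -0.57 ± 0.22 did not pass (adjusted p = 0.0796). The other 4 genes of these steps, Acat2, Mvk, Pmvk and Fdps, did not pass in WT either.

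At the squalene steps Sqle, the epoxidase that acts on squalene, stood at 28.9 and 25.8 CPM with PBS and at 18.8 and 20.9 after stimulation in WT, a change of -0.46 ± 0.10 (adjusted p = 0.00929). Fdft1, squalene synthase, went from 14.3 and 11.5 to 16.2 and 20.7 CPM, and its change of 0.52 ± 0.17 did not pass (adjusted p = 0.0515). Fdft1 shares 774 exon bases (18.3% of its exons) on the opposite strand with Ctsb, a cathepsin gene at 10330 to 22210 CPM in WT that fell by 1.03 on the log2 scale. The strand setting of the counts is not given, so reads of the shared bases cannot be assigned between them. Lss, the cyclase that closes squalene oxide to lanosterol, ranged from 20.6 to 22.9 CPM over the 4 WT libraries, with overlap between treatments.

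The lanosterol steps held 4 of the 8 sterol genes that fell in WT. Cyp51, the lanosterol demethylase, stood at 32.6 and 33.1 CPM with PBS and at 21.4 and 21.9 after stimulation, a change of -0.60 ± 0.08 (adjusted p = 0.000986). Msmo1, a sterol methyl oxidase, went from 55.6 and 58.8 to 35.7 and 41.6 CPM, or -0.57 ± 0.09 (adjusted p = 0.003). Sc5d, which adds a ring double bond, went from 32.0 and 31.6 to 24.0 and 21.7, or -0.48 ± 0.09 (adjusted p = 0.00429). In these 3 genes both stimulated WT libraries lay below both PBS libraries. Cyp51 shares 166 exon bases (3.76%) on the opposite strand with Akap9, at 30.8 to 54.9 CPM in WT. The Akap9 change of -0.39 in WT did not pass. Tm7sf2, a sterol reductase, changed by -0.50 ± 0.15 (adjusted p = 0.035) at a low level of 4.82 to 7.66 CPM, and it shares 532 exon bases (12.1%) with Vps51 on the same strand. Hsd17b7, a reductase of the same steps, rose by 0.44 ± 0.13 (adjusted p = 0.0365).

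Among the regulators Srebf2 stood at 125 and 114 CPM in WT with PBS and at 94.8 and 78.8 after stimulation, a change of -0.46 ± 0.10 (adjusted p = 0.0115). Stard4, a cytosolic sterol carrier, fell by 0.55 ± 0.12 (log2, adjusted p = 0.0104). Insig1, which retains SREBP in the endoplasmic reticulum and is itself a known SREBP target, stood at 91.2 and 94.9 against 129 and 105 CPM, and its change of 0.33 ± 0.11 did not pass (adjusted p = 0.0577).

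Scd2, the desaturase isoform, stood at 29.6 and 29.1 CPM in WT with PBS and at 143 and 132 after stimulation, a change of 2.23 ± 0.08 (log2, adjusted p = 3.67e-06). Its paralog Scd1 went the other way, from 5.02 and 4.98 to 3.09 and 2.98 CPM, or -0.72 ± 0.15 (adjusted p = 0.00898). Neither gene's libraries overlapped between treatments. Acss2, which makes acetyl-CoA from acetate, went from 10.1 and 10.7 to 34.8 and 35.9 CPM, or 1.77 ± 0.13 (adjusted p = 6.67e-05). It shares 395 exon bases (3.89%) on the opposite strand with Gss, which rose by 0.76. Acly, which makes acetyl-CoA from citrate, stood at 171 and 174 CPM with PBS and 169 and 165 after stimulation, a difference of -0.05 ± 0.06.

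Of the enzymes that build the chain, Acaca (acetyl-CoA carboxylase) rose by 0.62 ± 0.10 (adjusted p = 0.00261) and Fasn (fatty acid synthase) fell by 0.40 ± 0.12 (adjusted p = 0.0347). The factor gene Srebf1 rose by 0.32 ± 0.09 (adjusted p = 0.0234). The elongases Elovl1, Elovl5 and Elovl6 and the polyunsaturated fatty acid desaturases Fads1 and Fads2 did not pass in WT.

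Leaving out a library of a compared group leaves 1 library there, which is then assumed to vary like the libraries of the other groups. Of the 16 calls in WT, 8 held in each of the 8 fits that left out 1 library: Cyp51, Msmo1, Sc5d, Stard4, Scd1, Scd2, Acss2 and Acaca. Sqle and Srebf2 did not pass without the first WT PBS library (adjusted p = 0.0601 and 0.0671), nor did Mvd without that one (0.0654) or the second stimulated WT library (0.0576). Srebf1 did not pass without the second WT PBS library (adjusted p = 0.129) or the first stimulated WT library (0.0837). Idi1, Hsd17b7, Tm7sf2 and Fasn failed in 5 to 7 of the 8 fits, with adjusted p up to 0.168, 0.144, 0.162 and 0.112, each of them failing without either WT PBS library.

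**Figure D1:**
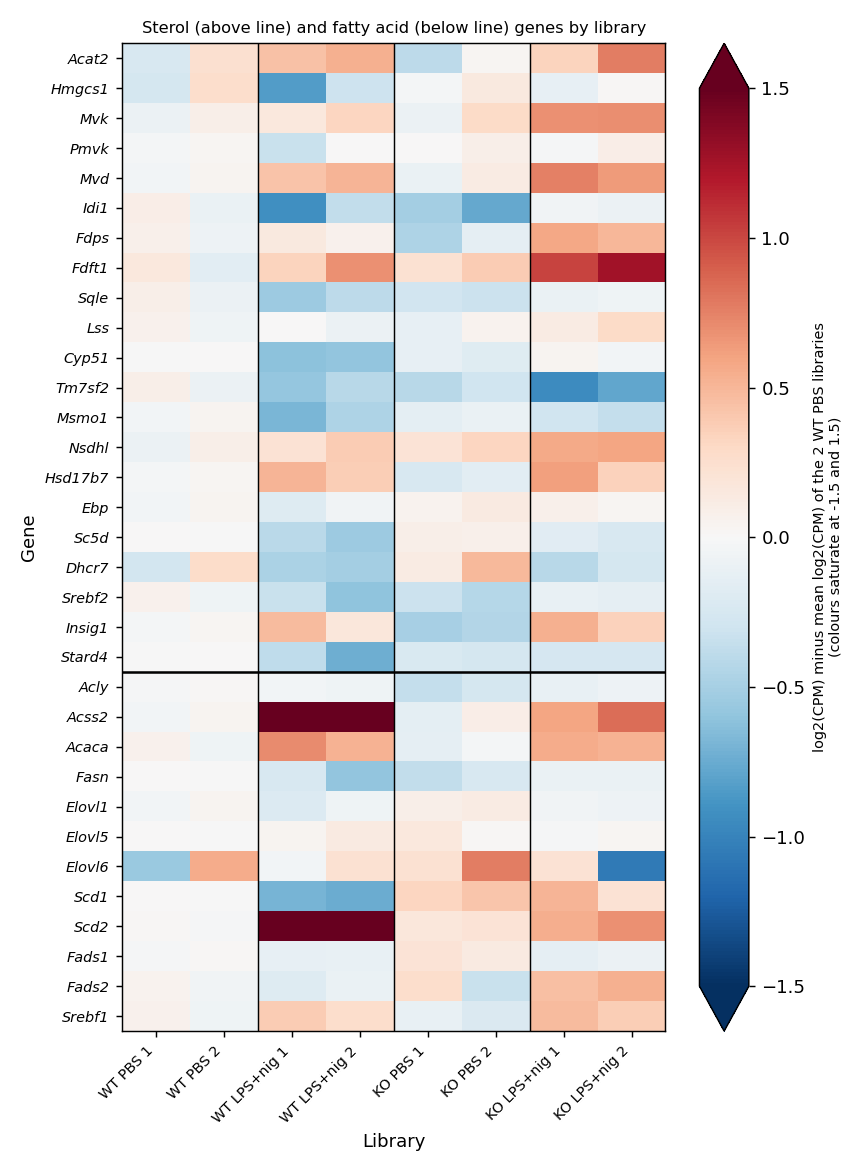
Level of each of the 33 genes in each of the 8 libraries, drawn as log2 CPM minus the mean log2 CPM of the 2 WT PBS libraries, with columns by group and rows by branch. Colours saturate at the ends of the scale. The Scd2 and Acss2 rows are highest in the 2 stimulated WT libraries, and the Cyp51 row is lowest there.

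In KO macrophages more sterol genes rose than fell on stimulation. Insig1, Fdft1, Fdps, Acat2, Mvd, Hsd17b7 and Mvk rose, and Tm7sf2, Sc5d and Dhcr7 fell, so that 7 sterol genes rose and 3 fell. Of the 12 fatty acid genes 5 rose (Acss2, Acaca, Srebf1, Scd2 and Acly) and 1 fell (Fads1). Of all tested genes 39.1% passed, 20.2% higher and 19.0% lower, and the members' shares were again 47.6% and 50%. Stimulated libraries lay above PBS libraries in 13 sterol genes and below them in 4, against 35.6% and 37.2% of all genes. With library size alone they lay above in 12 and below in 7, against 31.6% and 41.4% of all genes. That scaling called 6 sterol genes higher and 4 lower, and 4 fatty acid genes higher and 2 lower. The median log2 fold change was 0.24 over sterol genes, 0.21 over fatty acid genes and -0.03 over all genes.

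The mevalonate steps held 4 of these 7 rises and no fall. Fdps, which makes farnesyl diphosphate, stood at 14.8 and 18.6 CPM in KO with PBS and at 30.7 and 28.9 after stimulation, a change of 0.83 ± 0.13 (adjusted p = 0.00225). Mvd went from 18.8 and 21.9 to 34.0 and 31.4 CPM, or 0.69 ± 0.11 (adjusted p = 0.00216). Stimulated and PBS libraries did not overlap in these genes. Fdps shares 1124 exon bases (26.7%) on the same strand with Gm43738, which stood at 0 CPM in every library. Acat2, the thiolase that starts the pathway, changed by 0.74 ± 0.24 (adjusted p = 0.0452) and Mvk, mevalonate kinase, by 0.58 ± 0.15 (adjusted p = 0.0221). Idi1 stood at 12.1 and 10.1 CPM with PBS and 16.6 and 16.2 after stimulation, and its change of 0.56 ± 0.19 did not pass (adjusted p = 0.0584).

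Fdft1 stood at 14.98 and 16.7 CPM in KO with PBS and at 26.0 and 30.7 after stimulation, a change of 0.84 ± 0.17 (adjusted p = 0.00803), while the overlapping Ctsb fell by 1.16. Insig1 stood at 66.1 and 68.5 CPM with PBS and at 135 and 119 after stimulation, a change of 0.91 ± 0.11 (adjusted p = 0.00086). Its stimulated libraries lay far above its PBS libraries. Several genes that fell in WT did not pass here, with differences of 0.25 ± 0.10 for Srebf2 (adjusted p = 0.107), 0.15 ± 0.08 for Cyp51 (0.172) and 0.22 ± 0.10 for Sqle (0.129). The late enzymes Dhcr7, at -0.65 ± 0.20 (adjusted p = 0.0368), and Sc5d, at -0.29 ± 0.09 (0.035), fell in KO, as did Tm7sf2 at -0.50 ± 0.15 (0.035).

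Scd2 stood at 32.96 and 33.9 CPM in KO with PBS and at 42.8 and 47.0 after stimulation, a change of 0.42 ± 0.08 (adjusted p = 0.0058), or 1.34-fold. Acss2 went from 9.40 and 11.1 to 15.6 and 18.5 CPM, or 0.73 ± 0.13 (adjusted p = 0.00402), a 1.66-fold rise. Both genes rose without overlap between libraries. Acaca rose by 0.62 ± 0.10 (adjusted p = 0.00258) and Srebf1 by 0.58 ± 0.09 (adjusted p = 0.0019). Acly rose by 0.22 ± 0.06 (adjusted p = 0.0336), and Fads1, a desaturase of polyunsaturated fatty acids, fell by 0.28 ± 0.06 (adjusted p = 0.011). Scd1 stood at 6.27 and 6.66 CPM with PBS and at 7.11 and 5.81 after stimulation, which overlap.

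Of the 16 calls in KO, 8 held in each of the 8 fits that left out 1 library: Mvd, Fdps, Hsd17b7, Insig1, Acss2, Acaca, Scd2 and Srebf1. Fdft1 did not pass without the first KO PBS library (adjusted p = 0.0517), nor did Fads1 without that one (0.0606) or the first stimulated KO library (0.0821). Mvk did not pass without the first KO PBS library (0.0977) and lost its call with the first or the second stimulated KO library left out (0.0796 and 0.0809). Acat2, Acly, Dhcr7, Sc5d and Tm7sf2 failed in 4 to 6 of the fits, with adjusted p up to 0.218, 0.161, 0.18, 0.167 and 0.161, all 5 of them failing without the second stimulated KO library.

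**Figure D2:**
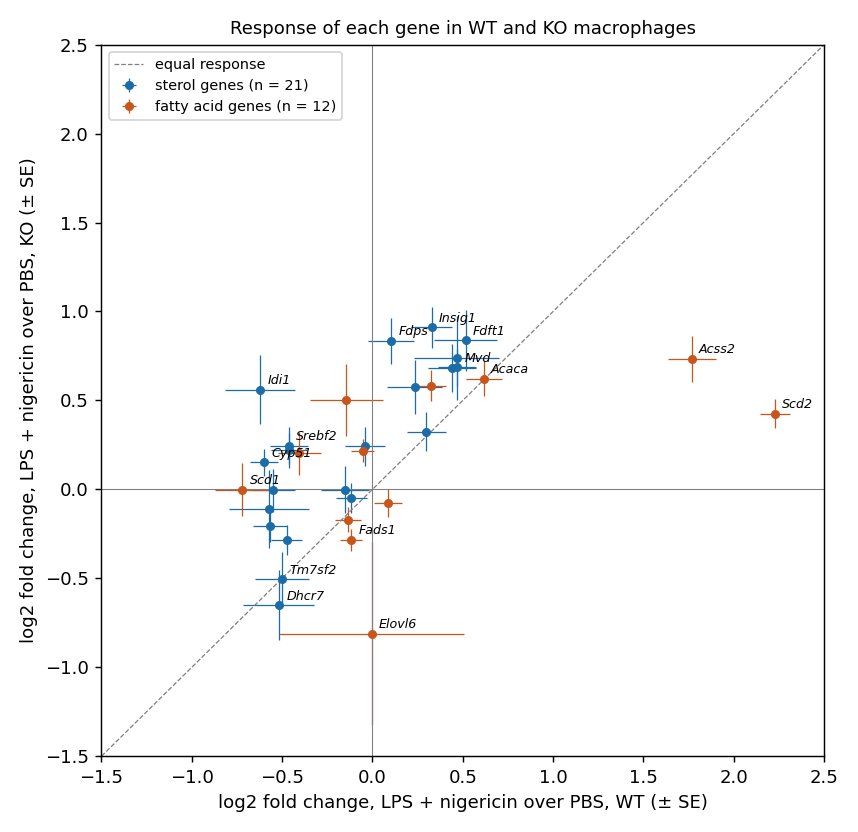
Log2 fold change of each gene on stimulation in WT (x axis) against KO (y axis), with bars of ± 1 SE, coloured by branch. Scd2 and Acss2 lie far to the right at 2.23 and 1.77 in WT with 0.42 and 0.73 in KO, while most sterol genes lie above the diagonal.

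With PBS, KO and WT macrophages differed in 0 of the 33 genes by edgeR's quasi-likelihood test. Of all tested genes 1.55% passed, 1.20% higher and 0.355% lower. Without adjustment 1 sterol gene was higher and 5 were lower at p under 0.05, and 2 fatty acid genes were higher and 2 lower, while 15.4% of all genes were under that p. DESeq2 called 1 sterol and 1 fatty acid gene, both lower in KO, but 876 genes in all, against 271 in the main fit. The lowest difference was -0.63 ± 0.19 for Idi1 (adjusted p = 0.195) and the highest was 0.42 ± 0.51 for Elovl6, an elongase at 0.928 to 3.30 CPM over the 8 libraries. The Elovl6 value rests on single libraries, at -0.03 without the first WT PBS library and 1.07 without the second. Insig1 stood at 91.2 and 94.9 CPM in WT and at 66.1 and 68.5 in KO, a difference of -0.47 ± 0.11 (adjusted p = 0.12), and Acly stood at 171 and 174 against 135 and 144, or -0.31 ± 0.06 (adjusted p = 0.0793). Their libraries did not overlap. In the sterol list 10 of 21 genes had both KO libraries below both WT libraries and 4 had them above, against 24.0% and 24.6% of all genes.

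After stimulation 4 genes differed between genotypes. Scd2 was 3.06-fold lower and Acss2 2.07-fold lower in KO, and Scd1 was 2.13-fold higher and Cyp51 1.52-fold higher. Of the 21 sterol genes 1 was higher and 0 lower, and of the 12 fatty acid genes 1 was higher and 2 lower, while 4.92% of all tested genes passed, 2.91% higher and 2.01% lower. With library size alone the median of all genes was 0.13, 81.6% of all calls were higher in KO instead of 59.1%, and 6 sterol genes passed as higher. This comparison shares the stimulated WT libraries with the WT response and the stimulated KO libraries with the KO response, so it adds no independent samples to them.

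Scd2 stood at 143 and 132 CPM in stimulated WT and at 42.8 and 47.0 in stimulated KO libraries, a difference of -1.61 ± 0.08 (log2, adjusted p = 0.000979). Acss2 stood at 34.8 and 35.9 against 15.6 and 18.5 CPM, or -1.05 ± 0.13 (adjusted p = 0.00846). Scd1 stood at 3.09 and 2.98 against 7.11 and 5.81 CPM, or 1.09 ± 0.15 (adjusted p = 0.0134). Cyp51 stood at 21.4 and 21.9 against 33.7 and 31.9 CPM, or 0.60 ± 0.08 (adjusted p = 0.0107). Genotypes did not overlap in any of the 4 genes, while both KO libraries lay above in 25.0% and below in 25.1% of all tested genes. Only the Scd2 call held in each of the 8 fits that left out 1 library. Cyp51 did not pass without the first or the second stimulated KO library (adjusted p = 0.0845 and 0.055), and Acss2 did not pass without the first (0.0622). Scd1 did not pass without the first or second stimulated WT library (adjusted p = 0.0541 and 0.062) or without the first stimulated KO library (0.0848).

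**Figure D3:**
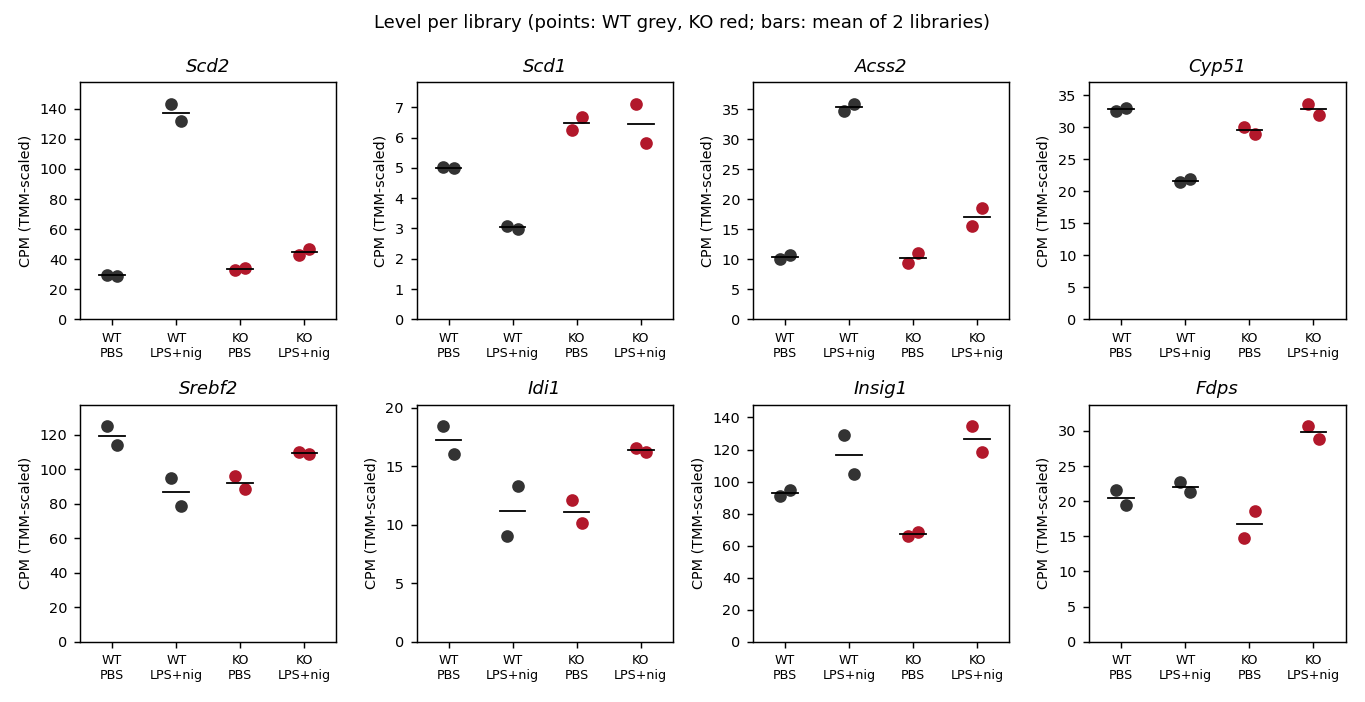
Level of selected genes in CPM (y axis from 0) in each of the 8 libraries, with points for libraries and bars for the mean of 2 libraries per group. Scd2 and Acss2 are highest in stimulated WT libraries, where Cyp51 and Scd1 are lowest.

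None of the other 20 sterol genes passed after stimulation, but nearly all had higher values in KO. Over the whole list the log2 difference was above 0 in 20 of 21 genes, against 8485 of 17470 tested genes. The exception was Tm7sf2 at -0.36 ± 0.15 (adjusted p = 0.249). The median was 0.27 over sterol genes (0.41 with library size alone), against -0.02 over fatty acid genes and -0.00447 over all genes. All genes were read from the same libraries, so these counts are not of independent observations. Both KO libraries lay above both WT libraries in 16 of 21 sterol genes and below them in 1, against 25.0% and 25.1% of all genes. Among the fatty acid genes 3 of 12 lay above and 4 below, but with library size alone 8 lay above and 2 below, against 39.4% and 13.4% of all genes. The same scaling gave 17 above and 1 below in the sterol list.

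Summed over the sterol list, stimulated KO libraries held 723 and 714 CPM and stimulated WT libraries 595 and 586, while PBS libraries held 656 and 678 in WT and 589 and 618 in KO. These sums weigh abundant genes such as Srebf2 and Insig1 most. Fdps stood at 22.7 and 21.3 CPM in stimulated WT and at 30.7 and 28.9 in stimulated KO, a difference of 0.44 ± 0.13 that did not pass (adjusted p = 0.116). Fdft1 (0.62 ± 0.17, adjusted p = 0.0987), Sqle (0.38 ± 0.10, 0.0885), Srebf2 (0.34 ± 0.10, 0.134) and Idi1 (0.55 ± 0.19, 0.181) did not pass either.

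**Figure D4:**
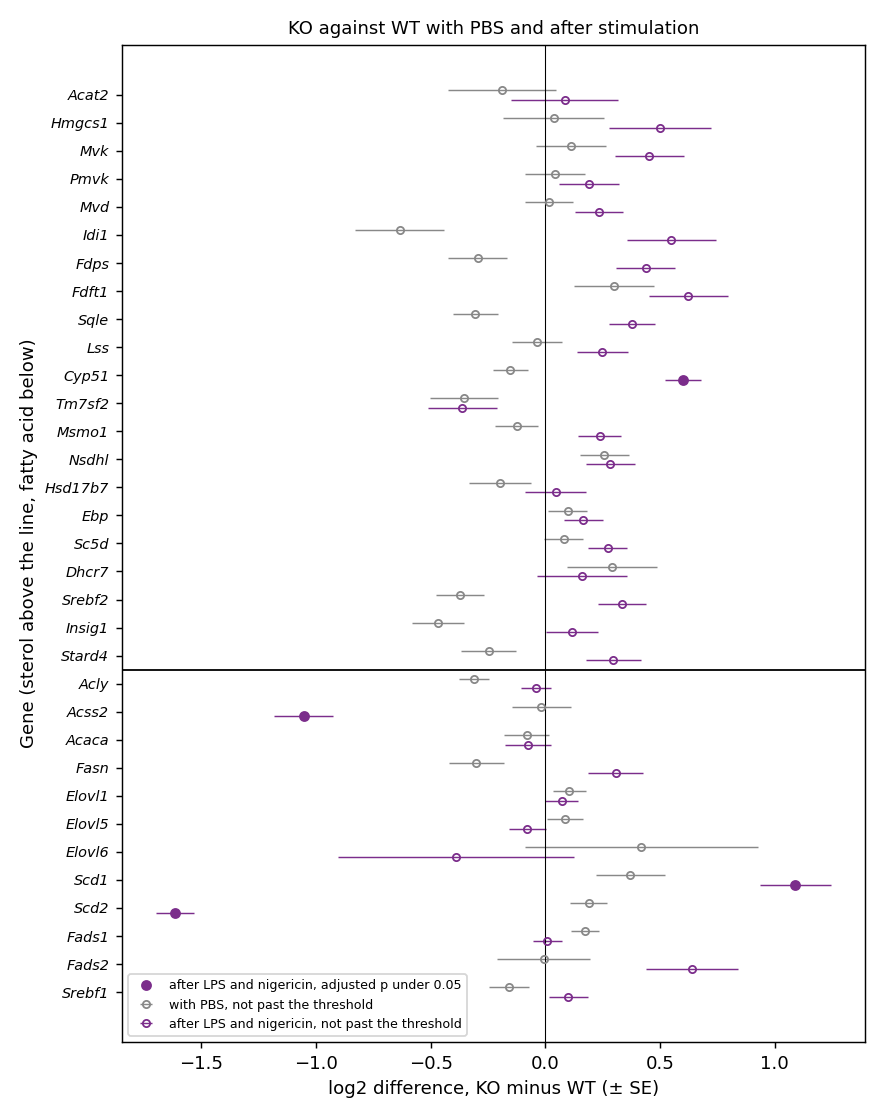
Log2 difference of KO minus WT for each gene, with bars of ± 1 SE, with PBS and after stimulation. After stimulation the sterol genes other than Tm7sf2 lie to the right of 0, while Scd2 and Acss2 lie at -1.61 and -1.05 and Scd1 at 1.09.

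The test of whether the response to stimulation differed between genotypes passed for 1 of the 33 genes, Scd2, whose response was smaller in KO by a log2 difference of -1.80 ± 0.12 (adjusted p = 0.00332). Of all tested genes 0.498% passed, 0.103% higher and 0.395% lower. Cyp51, at 0.75 ± 0.11 (adjusted p = 0.0529), and Acss2, at -1.03 ± 0.18 (adjusted p = 0.0847), did not pass, and neither did Idi1 at 1.18 ± 0.27 (adjusted p = 0.173). The difference was above 0 in 19 of 21 sterol genes, with a median of 0.32, against 8692 of 17470 tested genes and a median of -0.002. Without adjustment 8 sterol genes were higher and 0 lower at p under 0.05 (38.1%). Of the 12 fatty acid genes 3 were higher and 2 lower at that p (41.7%). Of all tested genes 839 were higher and 1033 lower (10.7%). DESeq2 called 5 sterol genes as higher and 2 fatty acid genes as lower in this test, but 486 genes in all, against 87 in the main fit. Limma-voom and library size alone called 1 sterol gene each as higher, with 84 and 86 genes called in all.

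Scd1 and Scd2 encode desaturases of the same reaction and lie in 1 cluster on chromosome 19 (GRCm38), Scd2 at 44293674 to 44306864 on the plus strand and Scd1 at 44394455 to 44407879 on the minus strand. The gap between them is 87590 bases and holds a further paralog, Scd4. Per kb of exon, the ratio of the Scd2 level to the Scd1 level was 5.28 and 5.23 in WT with PBS, 4.71 and 4.56 in KO with PBS, and 5.39 and 7.24 in stimulated KO. In stimulated WT it was 41.5 and 39.6, well above every other library. The genes are paralogs, and 2.97% of Scd1's and 2.66% of Scd2's transcript windows of 50 bases were shared letter for letter.

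**Figure D5:**
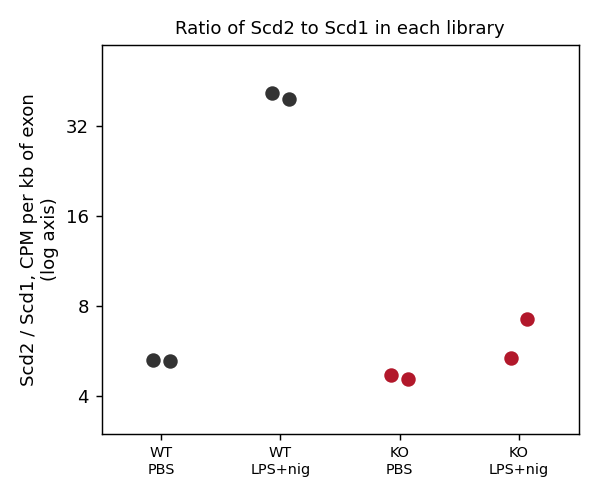
Ratio of Scd2 to Scd1 in CPM per kb of exon (log axis) in each library, by group. The 2 stimulated WT libraries stand at 41.5 and 39.6, and the other 6 lie between 4.56 and 7.24.

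Levels per kb of exon give the order among genes. In WT with PBS the highest means in the fatty acid list were Elovl1 at 43.7 CPM per kb, an elongase of very long chains, and Acly at 32.7, and the lowest was Elovl6 at 0.325. In the sterol list the highest were Insig1 at 30.1, Ebp, a sterol isomerase, at 17.4 and Srebf2 at 16.7, and the lowest were Hsd17b7 at 1.53 and Tm7sf2 at 1.64. Scd2 went from 5.37 in WT with PBS to 25.2 in stimulated WT, above Fads1 at 21.8 there. In stimulated KO Scd2 stood at 8.22, below Fads1 at 21.9.

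Genes around these pathways came from 6 further lists, read against the backgrounds above. Of 12 tested genes of SREBP processing and sterol sensing, 2 rose and 3 fell in WT and 4 rose and 4 fell in KO. Nr1h3, which encodes LXR alpha, rose by 2.40 ± 0.07 in WT and 1.99 ± 0.07 in KO, and Scap, the SREBP escort, fell, at -1.11 ± 0.08 and -0.66 ± 0.08. Nr1h3 stood at 43.8 and 42.3 CPM in WT with PBS and at 223 and 232 after stimulation. Between genotypes 0 of these 12 genes passed with PBS or after stimulation.

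Of 8 genes of sterol esters and oxysterols 4 rose and 3 fell in each genotype. Ch25h, which makes 25-hydroxycholesterol, rose by 3.59 ± 0.22 in WT and 3.42 ± 0.21 in KO, and was 0.96 ± 0.19 higher in stimulated KO (adjusted p = 0.037). Soat1, which esterifies cholesterol, fell, at -1.09 ± 0.06 and -1.46 ± 0.06, and was lower in stimulated KO at -0.38 ± 0.06 (adjusted p = 0.0237). Cyp27a1, which makes 27-hydroxycholesterol, fell, at -2.67 ± 0.12 and -2.97 ± 0.12. Nceh1, a cholesteryl ester hydrolase, fell, at -1.94 ± 0.06 and -2.09 ± 0.06. Of 9 genes of the isoprenoid branch 2 rose and 2 fell in each genotype, with the ubiquinone enzyme Coq2 at 1.35 ± 0.17 and 1.42 ± 0.17, and 0 differed between genotypes.

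Of 17 genes of fatty acid supply, activation and further elongation, 8 rose and 5 fell in WT and 8 rose and 3 fell in KO. Acsl1, which activates long-chain fatty acids, stood at 61.1 and 66.0 CPM in WT with PBS and at 1851 and 1631 after stimulation. In stimulated KO it stood at 1127 and 1019, below WT by a log2 difference of -0.70 ± 0.09 (adjusted p = 0.0109). Me1, malic enzyme, a source of NADPH, rose by 1.65 ± 0.12 in WT and 1.00 ± 0.12 in KO and was lower in stimulated KO at -1.07 ± 0.12 (adjusted p = 0.00611). Fads3 was higher there at 0.82 ± 0.18 (adjusted p = 0.0498). Elovl7 had 0 counts in both stimulated WT libraries and 27 in the stimulated KO libraries together, at least 8.42-fold higher in KO when 3 counts over the group stand in for the 0.

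Of 5 genes of mitochondrial fatty acid synthesis 2 rose in each genotype, Mecr and Ndufab1. Of 9 LXR target and lipid storage genes 1 rose and 4 fell in WT and 1 rose and 5 fell in KO. The gene that rose was Dgat2, the last enzyme of triglyceride synthesis, at 0.675 and 0.722 CPM in WT with PBS, 9.51 and 9.93 in stimulated WT and 33.3 and 33.4 in stimulated KO. The genotypes differed by 1.78 ± 0.17 after stimulation (adjusted p = 0.00424). Lpin1, a phosphatidate phosphatase, fell, at -3.27 ± 0.13 in WT and -3.29 ± 0.13 in KO, and Plin2, a lipid droplet coat protein, fell, at -2.41 ± 0.10 and -2.37 ± 0.10. No gene of the 6 lists passed for genotype with PBS or for the difference of responses.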

How the data were processed

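Counts per gene and library were used as deposited by the authors, without rounding or rescaling (8 libraries, 55401 genes). Trimmomatic, Bowtie2, edgeR and the build mm10 are named, without versions, per the submitters' processing notes. The counting tool, its annotation and strand setting were not given in the sources used here. Symbols for 55141 genes came from GENCODE M21. The 33 members and the pathway lists were chosen with earlier results of these data known.

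Genes were kept by filterByExpr (minimum count 10, minimum total 15). The fit over all 8 libraries had a coefficient for each group (4 residual degrees of freedom, TMM factors 0.888 to 1.068) in edgeR 4.0.16 (R 4.3.3). The 5 contrasts used quasi-likelihood F tests with Benjamini-Hochberg adjustment over 17470 genes at 0.05. A standard error is the unshrunk log2 fold change divided by √F. Named genes are all members, up to 4 genes per pathway list with the smallest adjusted p among those called, and Mettl3. Members named by level were chosen after their values were seen.

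On simulated counts with known changes in a small share of genes, the WT contrast found 42% of 2-fold and 70% of 4-fold changes. The KO contrast found 28% and 68%, genotype with PBS 35% and 73%, genotype after stimulation 37% and 65%, and the difference of responses 9% and 50%. On stimulation in the data far more genes changed (40.5% passed in WT), so the shares found there may differ. The changed genes were drawn at random from all tested genes, so the shares may also differ for the members. Alternatives were DESeq2 size factors, library size only, DESeq2 1.42.0, limma-voom (limma 3.58.1), no filter, only the groups compared, a replicate block, and leaving out 1 library at a time. The motif TCACCNCA was chosen after the promoters were read. Exon overlap between genes was found from the annotation: 12 members share exon bases with another gene, 7 of them with a protein-coding gene.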

Additional observations from a re-analysis of the deposited data

Results flagged for a closer look

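Scd2 had responses to stimulation that differed between genotypes in the test of the difference itself. The log2 fold change was 2.23 ± 0.08 in WT and 0.42 ± 0.08 in KO, a difference of -1.80 ± 0.12 (edgeR's quasi-likelihood test, adjusted p = 0.00332). The stimulated WT libraries stood at 143 and 132 CPM and the stimulated KO libraries at 42.8 and 47.0.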

How the results depend on the processing

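Directions of the called members held under every alternative that was run. Counts of calls moved by over 1.5 times as follows. With library size only, 0 sterol genes rose and 5 fatty acid genes fell in WT, 2 fatty acid genes fell in KO, 6 sterol genes were higher in stimulated KO, and 1 had a higher response in KO. That scaling moved the median of all genes to -0.11 in KO and 0.10 in the difference of responses. With DESeq2, 4 sterol genes rose in WT, 876 genes in all differed with PBS (1 sterol and 1 fatty acid gene lower), 1654 differed after stimulation (3 sterol genes higher), and 486 differed in response (5 sterol genes higher, 2 fatty acid genes lower). Limma-voom called 1 sterol gene higher in the difference of responses. With no filter 1 sterol gene rose in WT and 1 fell in KO. With only the groups compared 1 sterol gene rose and 1 fatty acid gene fell in WT, 1 sterol gene fell in KO, 44 genes differed with PBS and 504 after stimulation, with 0 fatty acid genes higher. With the replicate number as a block 4 sterol genes rose in WT. Differences between the 2 libraries of a group (second minus first) correlated at -0.015 to 0.101 between groups. These values cannot tell whether same-numbered libraries share a mouse, culture or batch.

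Leaving out 1 library, with the lone library of its group assumed to vary like the other groups, gave 5350 to 6827 calls in WT, with 0 to 2 sterol genes higher, 6 to 8 lower, and 3 to 4 fatty acid genes higher and 1 to 2 lower. In KO it gave 5049 to 7119, with 4 to 9, 0 to 2, 4 to 5 and 0 to 1. It gave 80 to 262 with PBS and 158 to 616 after stimulation (0 to 1 sterol genes higher, 0 to 1 fatty acid genes higher and 1 to 2 lower). The difference of responses had 20 to 94. Near 0, Scd1 in KO moved from -0.001 to 0.002116 with DESeq2 size factors, 0.001067 with DESeq2, 0.01687 with only the groups compared and -0.153 to 0.1375 without 1 library. Stard4 in KO moved to 0.01232 with only the groups compared and between -0.01835 and 0.007278 without 1 library. Elovl6 with PBS lay between -0.03384 and 1.072 without 1 library. With 2 libraries per group, changes of 2-fold and also of 4-fold were often missed in the simulations. Those changes were placed in genes drawn at random from all tested genes, not in the members.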
